A study of Homo sapiens with 12 samples.

Results

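Transcripts of the oxygen-sensing pathway were followed in 12 RNA libraries from human ovarian cancer cells treated with the ATAD2 bromodomain inhibitor BAY-850. The set comprised 10 of the 26475 gene symbols in the count table. The hypoxia-inducible factor (HIF) subunits HIF1A, EPAS1 and ARNT, the von Hippel-Lindau gene VHL, the prolyl hydroxylases EGLN1, EGLN2 and EGLN3, and the asparaginyl hydroxylase HIF1AN were chosen by their role, which gives 8 genes. ANKRD37 and NDRG1 were added as 2 sentinel targets, selected on their known high levels after BAY-850 in these same libraries. Their BAY-850 values are therefore a description and carry no p-value. The 8 genes chosen by role were also listed with earlier results of these data known, so their tests are not independent evidence for the set. PA-1 cells, a line from an ovarian teratocarcinoma grown in DMEM, and SK-OV-3 cells, a line from an ovarian adenocarcinoma grown in RPMI, each received DMSO as the vehicle or BAY-850 at 5 µM, both for 48 h, with 3 biological replicates in each of the 4 groups. All 12 libraries came from cells kept with 10% fetal bovine serum and antibiotics in a CO2 incubator, no oxygen level is given in the sources used here, and each histology is represented by 1 cell line.

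HIF is a pair of an oxygen-regulated alpha subunit, in this set encoded by HIF1A or EPAS1 (the gene of HIF2A), and the stable beta subunit encoded by ARNT. In oxygenated cells the prolyl hydroxylases PHD2 (EGLN1), PHD1 (EGLN2) and PHD3 (EGLN3) mark the alpha subunits, the VHL protein recognises the mark and brings the ubiquitin ligase that leads to their destruction, and the hydroxylase encoded by HIF1AN blocks their contact with coactivators. When the alpha subunits escape, the pair binds hypoxia response elements and raises genes of glycolysis, angiogenesis and pH control, and EGLN1 and EGLN3 are themselves HIF targets, which forms a feedback loop. ANKRD37, which encodes a small ankyrin repeat protein, and NDRG1, a stress-induced gene linked to differentiation and metastasis suppression, are common markers of HIF activity. The alpha subunits are controlled largely at the protein level, whereas only RNA was measured here.

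The total count of a library ranged from 34544505 to 51840233, and genes for ribosomal RNA took 7.94% to 16.9% of it. The library of SK-OV-3 with BAY-850 replicate 3 stood apart, with the highest total, counts in 15634 genes against 17437 to 18440 in the other libraries, and 8.94% of values not whole against 11.0% to 12.4%. Markers as sums matched the labelled lines. The 9 germ cell tumour markers (among them LIN28A, SOX2 and POU5F1) summed to 1441 to 1737 CPM (TMM-normalized counts scaled to a common library size) in PA-1 libraries, with 8 of 9 at 1 CPM or more, and in SK-OV-3 to 36.3 to 40.8 CPM with DMSO and 78.6 to 81.7 CPM with BAY-850, with 2 of 9. DNMT3B, one of these 2, went from 31.5 ± 1.90 to 70.6 ± 2.08 CPM. The 8 carcinoma markers (among them ERBB2, KRT7 and PAX8) summed in SK-OV-3 to 4322 to 4631 CPM with DMSO and 3192 to 3676 CPM with BAY-850, with 7 of 8 at that level. ERBB2 went there from 2417 ± 246 to 1783 ± 210 CPM, and PAX8 went the other way, from 223 ± 7.28 to 324 ± 10.8 CPM. With BAY-850, 3 of the 8 were called as lower and 1 as higher in SK-OV-3, against 9.56% and 10.8% of all genes. In PA-1 the 8 markers summed to 924 to 980 and 1007 to 1055 CPM, with 4 of 8 at 1 CPM or more. Under DMSO, 7 of the 8 were called as lower in PA-1, where 80.3% of all genes were called. The other, KRT18, was higher in PA-1 (335 ± 9.40 against 266 ± 13.6 CPM). KRT8 stood close in both lines, at 532 ± 26.9 CPM in PA-1 and 599 ± 17.1 CPM in SK-OV-3. In SK-OV-3 the sum of the 5 leukocyte markers was 28.8 to 29.3 CPM under DMSO, while the BAY-850 libraries held 38.2 to 40.3 CPM. CD68 was the only 1 of these 5 at 1 CPM or more there. Its mean went from 28.6 ± 0.219 to 39.0 ± 1.27 CPM, so that the sum followed 1 gene and does not show leukocytes. In PA-1 the 5 summed to at most 4.15 CPM. The 3 endothelial markers summed to at most 41.5 CPM and the 5 fibroblast markers to 88.9 to 660 CPM. The fibroblast sum went from 180 to 190 CPM with DMSO to 88.9 to 117 CPM with BAY-850 in SK-OV-3 and from 470 to 581 CPM to 611 to 660 CPM in PA-1, and the part of these marker shifts in the results was not tested. In bulk RNA, fewer cells of a type and less RNA per cell cannot be told apart.

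The core of a hypoxia response element reads ACGTG or GCGTG. Promoter windows of 250 bases before to 50 bases after the RefSeq start site (build GRCh38.p14) were found for 8 of the 10 genes, all but VHL and NDRG1, and both strands were searched. The windows of ANKRD37 and EGLN1 are shown because these genes had the largest fold differences after BAY-850 in PA-1 among the 2 sentinel targets and among the 8 genes chosen by role. Capitals mark ACGTG on either strand. In CACGTG the motif is read on both strands from overlapping bases, and such a place was counted once.
ANKRD37, chr4:185396591-185396890 (+): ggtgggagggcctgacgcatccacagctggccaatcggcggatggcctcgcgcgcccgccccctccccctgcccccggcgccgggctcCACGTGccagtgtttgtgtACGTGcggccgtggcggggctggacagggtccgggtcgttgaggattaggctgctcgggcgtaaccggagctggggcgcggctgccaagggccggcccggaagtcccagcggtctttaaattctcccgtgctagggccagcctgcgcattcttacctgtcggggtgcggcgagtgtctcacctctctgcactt
EGLN1, chr1:231422238-231422537 (-): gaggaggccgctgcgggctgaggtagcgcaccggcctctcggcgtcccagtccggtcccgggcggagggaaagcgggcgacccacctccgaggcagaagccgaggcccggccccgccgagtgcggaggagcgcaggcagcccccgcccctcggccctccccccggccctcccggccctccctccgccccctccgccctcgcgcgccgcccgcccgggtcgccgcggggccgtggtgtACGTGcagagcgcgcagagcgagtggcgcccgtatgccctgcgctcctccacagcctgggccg
The ANKRD37 window held ACGTG at 2 places, with CACGTG starting at position -162 from the start site and ACGTG at -143. The EGLN1 window held ACGTG at -13, and EGLN2 held CACGTG at -49. HIF1A held GCGTG at -204 and EPAS1 at -117. No match was found in the windows of EGLN3, ARNT and HIF1AN. Of 35116 RefSeq promoter windows of this length, 48.4% held either motif at 1 place or more and 20.3% at 2 places or more, while 21.4% held ACGTG at 1 place or more and 3.4% at 2 places or more. A match describes the letters of the window and is not a measured binding site.

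ANKRD37 (chr4:185396021-185400628, plus strand) had the largest fold of the 10 genes after BAY-850, and it had it in PA-1. Its levels were 12.6, 11.0 and 10.9 CPM in the 3 DMSO libraries of PA-1 and 103, 92.8 and 106 CPM in its BAY-850 libraries. The groups lay far apart, with means of 11.5 ± 0.956 and 101 ± 6.93 CPM (SD, n = 3 each), an 8.76-fold difference (log2 fold change 3.13, SE 0.0807). Counted from the highest log2 fold change, with decreases last, it ranked 4 among 15212 genes tested. In SK-OV-3 the levels were 6.54, 4.47 and 6.53 CPM in the DMSO libraries and 7.31, 6.06 and 7.36 CPM in the BAY-850 libraries, so that the groups overlapped (log2 fold change 0.26, SE 0.191, 1.19-fold). The response in SK-OV-3 was lower than that in PA-1 by a log2 difference of -2.89 (SE 0.179). UFSP2, a neighbour on the opposite strand whose gene overlaps ANKRD37, had a log2 fold change of 0.018 in PA-1 and 0.071 in SK-OV-3 with adjusted p of 0.905 and 0.654 (edgeR).

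NDRG1, on chromosome 8, was higher with BAY-850 in both lines and by a like amount. In PA-1 it stood at 282, 260 and 262 CPM under DMSO and at 513, 484 and 483 CPM under BAY-850 (log2 fold change 0.88, SE 0.0548, 1.84-fold). In SK-OV-3 it stood at 206, 213 and 201 CPM under DMSO and at 371, 374 and 335 CPM under BAY-850 (log2 fold change 0.81, SE 0.0517, 1.76-fold). The groups did not overlap in either line, and the log2 responses differed by -0.08 (SE 0.0762, SK-OV-3 minus PA-1). Of its 3 relatives, NDRG2 and NDRG3 were not called in either line, and NDRG4 rose in SK-OV-3 (log2 fold change 1.05, adjusted p = 1.83e-05) but was not called in PA-1 (0.31, adjusted p = 0.165), with a difference between the lines of 0.72 (adjusted p = 0.00699).

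**Figure D1:**
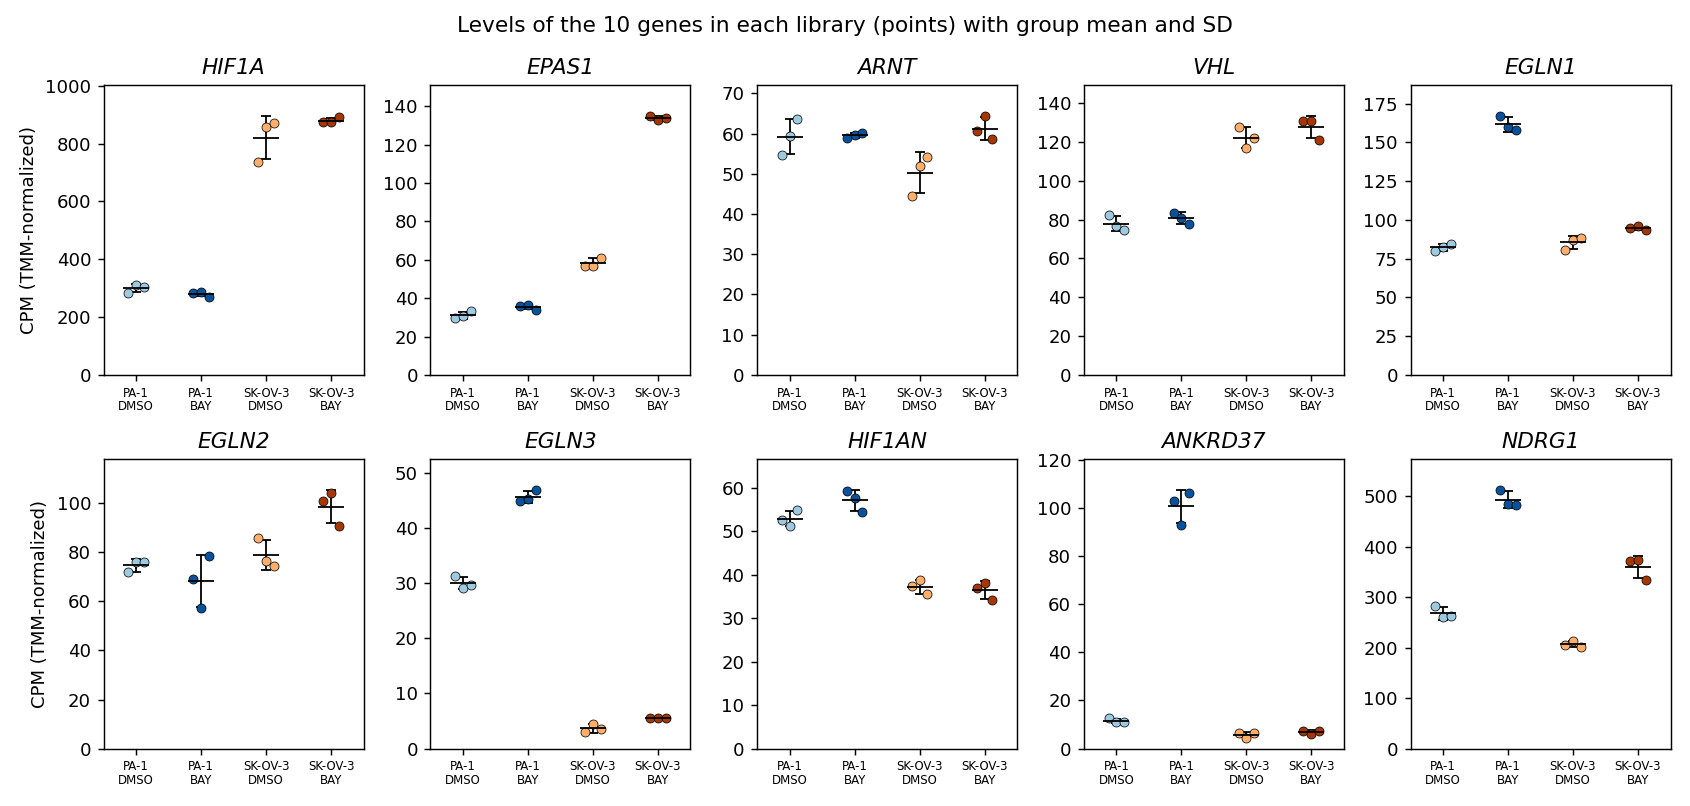
TMM-normalized CPM (y axis, linear from 0, scaled per panel) of the 10 genes in the 12 libraries, grouped on the x axis by cell line and treatment (BAY stands for BAY-850), with points for libraries and bars for the group mean and SD of 3 libraries. ANKRD37 goes from 11.5 to 101 CPM in PA-1 and from 5.85 to 6.91 CPM in SK-OV-3, whereas EPAS1 goes from 31.1 to 35.4 CPM in PA-1 and from 58.3 to 134 CPM in SK-OV-3.

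Among the HIF subunits, EPAS1 rose with BAY-850 in SK-OV-3, where it more than doubled. EPAS1 (chr2:46293667-46386703, plus strand) stood at 57.0, 56.7 and 61.1 CPM under DMSO and at 135, 133 and 134 CPM under BAY-850 in SK-OV-3, groups that lay far apart (2.32-fold, log2 fold change 1.21, SE 0.0565, adjusted p = 1.05e-07, edgeR). In PA-1 its levels were 29.6, 30.7 and 33.1 CPM in the DMSO libraries and 36.0, 36.3 and 34.0 CPM in the BAY-850 libraries. These groups did not overlap, but the difference did not pass the test (log2 fold change 0.19, SE 0.0705, adjusted p = 0.118). The response was larger in SK-OV-3 than in PA-1 by 1.01 on the log2 scale (SE 0.0840, adjusted p = 1.51e-06).

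HIF1A (chr14:61695513-61748259, plus strand), the most abundant alpha subunit transcript in both lines, did not pass the test in either. In PA-1 it stood at 284, 310 and 305 CPM under DMSO and at 284, 285 and 271 CPM under BAY-850, where the groups overlapped (log2 fold change -0.10, SE 0.0554, adjusted p = 0.314). In SK-OV-3 it stood at 735, 857 and 870 CPM under DMSO and at 873, 875 and 890 CPM under BAY-850, where the DMSO libraries lay below by a small margin (log2 fold change 0.11, SE 0.0605, adjusted p = 0.218). Its antisense genes HIF1A-AS1 and HIF1A-AS2 had means of at most 1.19 and 7.71 CPM in any group, small beside HIF1A.

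ARNT (chr1:150809705-150876768, minus strand), the shared beta subunit, rose in SK-OV-3 from 44.5, 52.0 and 54.3 CPM to 60.6, 64.4 and 58.8 CPM (log2 fold change 0.30, SE 0.0785, adjusted p = 0.0198). The call was lost without SK-OV-3 DMSO replicate 2 (log2 fold change 0.33), without SK-OV-3 BAY-850 replicate 2 (0.27) and with scaling by library size only (0.29). In PA-1 the means were 59.3 ± 4.42 and 59.6 ± 0.565 CPM, with a log2 fold change of 0.0084 (SE 0.0658, adjusted p = 0.956) whose sign turned under 3 of the alternatives. The responses of ARNT differed by 0.28 between the lines, which did not pass the test (adjusted p = 0.0999).

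Of the hydroxylases, EGLN1 and EGLN3 rose in PA-1, and EGLN2 rose in SK-OV-3. EGLN1 (chr1:231363751-231425044, minus strand), the main prolyl hydroxylase in most cells, went in PA-1 from 80.1, 82.5 and 84.2 CPM to 167, 160 and 158 CPM, a clear separation (1.96-fold, log2 fold change 0.97, SE 0.0558, adjusted p = 4.31e-08). In SK-OV-3 it stood at 80.8, 87.2 and 88.6 CPM under DMSO and at 94.7, 96.0 and 93.3 CPM under BAY-850. The SK-OV-3 groups did not overlap, yet the difference did not pass the test (log2 fold change 0.16, SE 0.0570, adjusted p = 0.0710). It passed with DESeq2 and with the trend on GC content removed (0.19). The response was lower than that in PA-1 by -0.83 on the log2 scale (SE 0.0727, adjusted p = 2.80e-06).

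EGLN3 (chr14:33924231-34462774, minus strand), the prolyl hydroxylase known for strong induction in hypoxia, had much the same log2 fold change in both lines from very different levels. In PA-1 it rose from 31.3, 29.1 and 29.7 CPM to 44.9, 45.2 and 46.9 CPM (log2 fold change 0.61, SE 0.0654, adjusted p = 3.63e-05). In SK-OV-3 it stood at 2.99, 4.50 and 3.55 CPM under DMSO and at 5.49, 5.61 and 5.53 CPM under BAY-850. All BAY-850 libraries of SK-OV-3 lay above those with DMSO, but the difference did not pass the test (log2 fold change 0.60, SE 0.203, adjusted p = 0.0577). It passed with DESeq2, with the trend on GC content removed, with all 12 libraries in 1 fit and without SK-OV-3 BAY-850 replicate 3, the library that stood apart. The difference of the responses was -0.014 (SE 0.165, adjusted p = 0.995). SPTSSA, annotated over part of EGLN3 on the same strand, had a log2 fold change of -0.16 in PA-1 and 0.059 in SK-OV-3 and was not called.

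EGLN2 (chr19:40798996-40808433, plus strand) rose in SK-OV-3 from 85.7, 76.5 and 74.4 CPM to 101, 104 and 90.9 CPM (log2 fold change 0.33, SE 0.0707, adjusted p = 0.00665). In PA-1 the DMSO libraries held 71.8, 75.9 and 76.2 CPM and the BAY-850 libraries 69.0, 57.4 and 78.7 CPM, with a spread that spanned the DMSO values (log2 fold change -0.12, SE 0.0902, adjusted p = 0.439). The read-through gene RAB4B-EGLN2 is annotated over EGLN2 on the same strand, and its level varied from 0.732 to 8.33 CPM among PA-1 libraries with DMSO and from 3.63 to 19.3 CPM among those with BAY-850. When the counts of both were summed, an alternative chosen after the data had been seen, the BAY-850 libraries of PA-1 held 79.0 ± 2.99 CPM against 78.4 ± 1.76 CPM (log2 fold change 0.012, SE 0.0582, adjusted p = 0.930), and those of SK-OV-3 held 101 ± 3.77 against 81.7 ± 4.01 CPM (0.32, SE 0.0595, adjusted p = 0.00322). The difference of the EGLN2 response between the lines was 0.45 (SE 0.133, adjusted p = 0.0341), or 0.29 with the summed counts (SE 0.0789, adjusted p = 0.0203), and without the sum its call was lost when any of 8 of the 12 libraries was left out, with values from 0.34 to 0.56.

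VHL (chr3:10141008-10152220, plus strand), which encodes the recognition subunit of the ubiquitin ligase, and HIF1AN (chr10:100529072-100559998, plus strand), which encodes the asparaginyl hydroxylase, were not called in either line. VHL had means of 77.9 ± 3.99 CPM under DMSO and 80.9 ± 2.90 CPM under BAY-850 in PA-1 (log2 fold change 0.056, SE 0.0604, adjusted p = 0.626) and of 123 ± 5.44 and 128 ± 5.34 CPM in SK-OV-3 (0.07, SE 0.0552, adjusted p = 0.414). HIF1AN had means of 52.9 ± 1.76 and 57.2 ± 2.44 CPM in PA-1 (log2 fold change 0.11, SE 0.0619, adjusted p = 0.289) and of 37.3 ± 1.59 and 36.4 ± 2.05 CPM in SK-OV-3 (-0.021, SE 0.0735, adjusted p = 0.875). The groups overlapped for both genes in both lines.

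Counted over the 8 genes chosen by role, 2 rose in PA-1 and none fell, where 7.13% of the 15212 genes tested were called, 4.65% as higher and 2.48% as lower. The libraries of the treatments did not overlap for 3 of the 8, against 27.5% of all genes tested. In SK-OV-3, 3 of the 8 rose and none fell, where 20.4% of 15348 genes were called, 10.8% as higher and 9.56% as lower, and 6 of the 8 did not overlap, against 38.6%. The SK-OV-3 count was 5 with DESeq2 and 6 after each library's trend on GC content was removed. EGLN1 and EGLN3 gained the call in both, and HIF1A in the latter. The count ranged from 2 to 4 when 1 library was left out, with 2 without DMSO replicate 2 or BAY-850 replicate 2 and 4 without BAY-850 replicate 3. The response differed between the lines for 3 of the 8, namely EPAS1, EGLN1 and EGLN2, against 14.5% of 16830 genes.

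**Figure D2:**
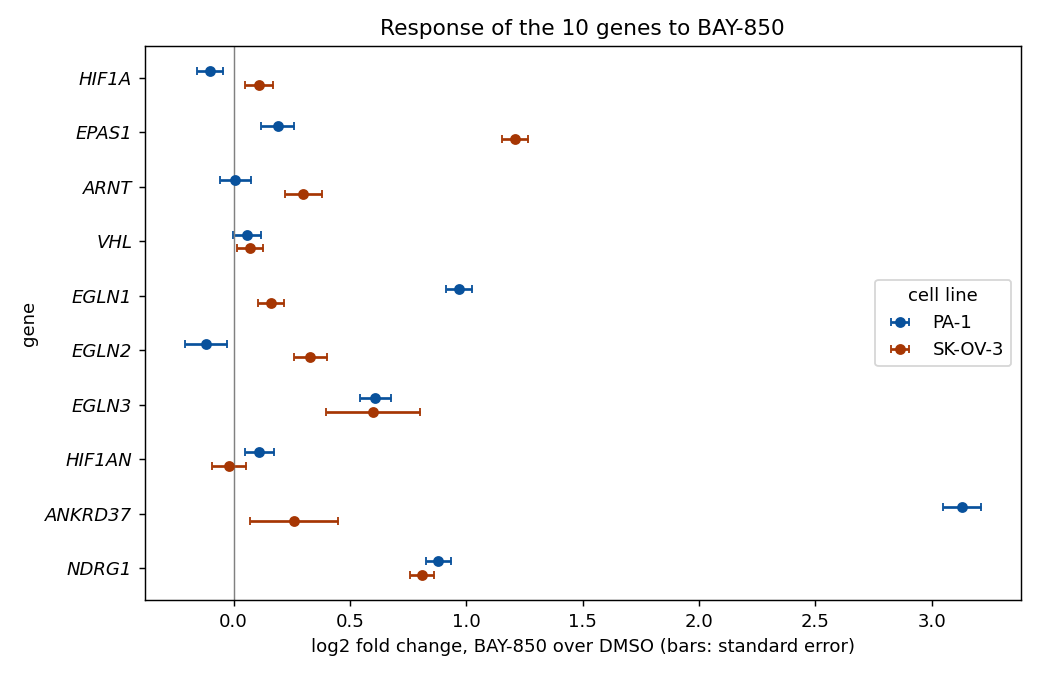
Log2 fold change of BAY-850 over DMSO (x axis) for each of the 10 genes (y axis), with blue points for PA-1, brown points for SK-OV-3 and bars for the standard error. NDRG1 and EGLN3 lie close together in both lines (0.88 and 0.81, 0.61 and 0.60), whereas ANKRD37 (3.13 and 0.26), EGLN1 (0.97 and 0.16) and EPAS1 (0.19 and 1.21) lie apart.

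The makeup of the pathway was compared between genes as CPM per kb of the annotated principal transcript. The lengths of the transcripts expressed in these cells were not estimated, so shares and orders per kb rest on the annotated length. The longest was that of HIF1AN, with 13011 bases. HIF1A exceeded EPAS1 in all 12 libraries. The ratio of HIF1A to EPAS1 was 12.2 to 13.3 with DMSO and 10.3 to 10.5 with BAY-850 in PA-1, and 17.0 to 19.9 with DMSO and 8.54 to 8.75 with BAY-850 in SK-OV-3. The groups did not overlap in either line, and since 3 libraries against 3 cannot give an exact two-sided p below 0.1 the ratio was not tested. EPAS1 thus made up 4.78% to 5.56% of HIF1A plus EPAS1 per kb in SK-OV-3 with DMSO and 10.3% to 10.5% with BAY-850. HIF3A, another subunit gene of the family, was not part of this sum. It stood at 16.5 ± 2.99 CPM in PA-1 with DMSO and at 0 CPM in SK-OV-3 with DMSO.

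Among the prolyl hydroxylases, EGLN2 held the largest share per kb in every group mean, with 53.8% ± 1.00 in PA-1 with DMSO, 37.8% ± 3.60 in PA-1 with BAY-850, 67.6% ± 2.89 in SK-OV-3 with DMSO and 69.4% ± 1.23 in SK-OV-3 with BAY-850 (SD, n = 3 each, read-through gene not included). In PA-1 with BAY-850 its libraries overlapped with those of EGLN1. In the library where EGLN2 was lowest there (57.4 CPM), RAB4B-EGLN2 was highest (19.3 CPM). The shares and this overlap were not computed with the counts of both summed. EGLN1 went from 23.4% to 23.8% of the sum in PA-1 with DMSO to 33.0% to 37.8% with BAY-850. EGLN3 held 21.8% to 23.9% in PA-1 with DMSO but 2.58% to 4.04% in SK-OV-3 with DMSO. The summed level of the 3 genes was 49.1 ± 0.755 CPM per kb with DMSO and 63.8 ± 3.94 with BAY-850 in PA-1, and 41.4 ± 1.37 and 50.3 ± 2.62 in SK-OV-3, higher with BAY-850 in 3 of 3 libraries of each line.

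**Figure D3:**
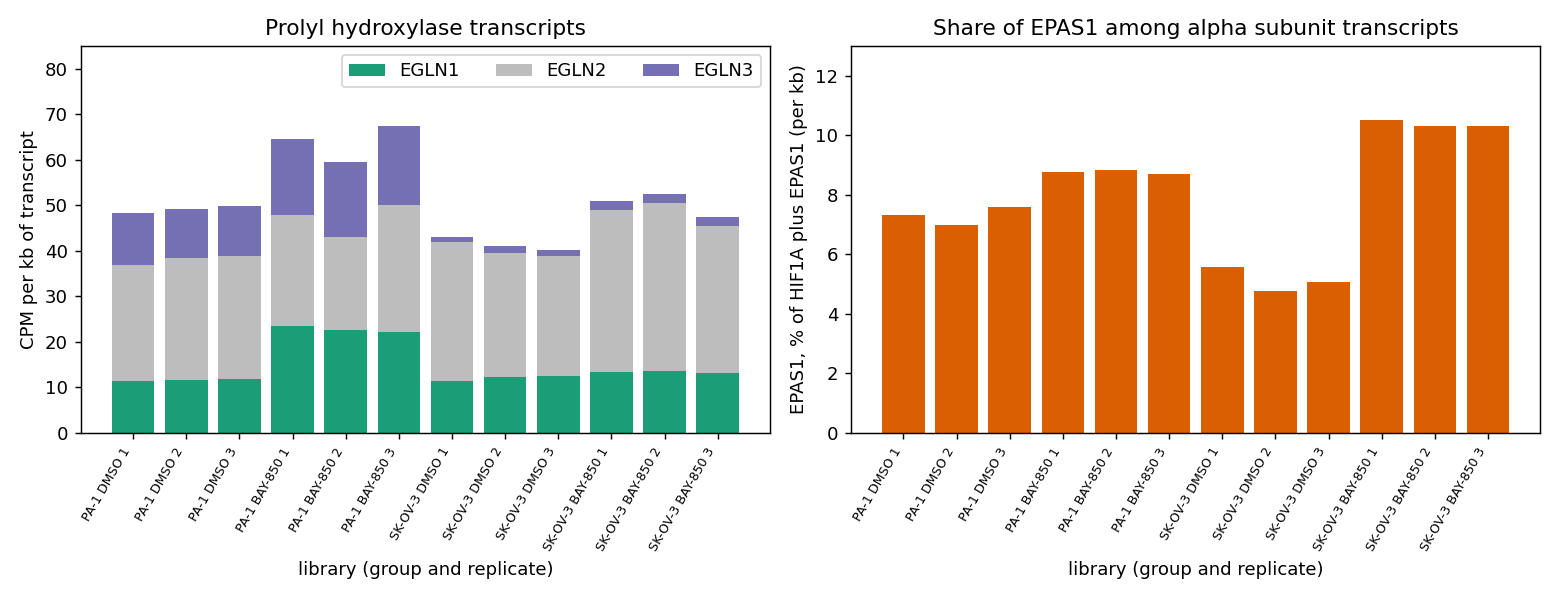
Left, CPM per kb of transcript (y axis) of EGLN1, EGLN2 and EGLN3 stacked for each of the 12 libraries (x axis), and right, EPAS1 as a percentage of HIF1A plus EPAS1 per kb in the same libraries. The EGLN3 segment spans 21.8% to 23.9% of the stack in PA-1 with DMSO and 2.58% to 4.04% in SK-OV-3 with DMSO, and the EPAS1 share reaches 10.3% to 10.5% in SK-OV-3 with BAY-850.

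The order of levels per kb also moved. In PA-1 with DMSO, HIF1A (76.5 CPM per kb) and NDRG1 (71.4) led with overlapping libraries, followed by EGLN2 (26.5) and VHL (20.8). ARNT (12.1), EGLN1 (11.6), EGLN3 (11.1) and ANKRD37 (10.1) overlapped, each with its neighbour in this order, and EPAS1 (6.03) and HIF1AN (4.07) came last. In PA-1 with BAY-850, NDRG1 (131) and ANKRD37 (88.1) stood above HIF1A (71.4). There EGLN2 (24.2, read-through gene not included), EGLN1 (22.7) and VHL (21.6) overlapped with their neighbours. In SK-OV-3, HIF1A led by far with DMSO (209) and with BAY-850 (224), before NDRG1 (55.0 and 95.8). EPAS1 stood at 11.3 with DMSO, overlapping with EGLN1 (12.1) above and ARNT (10.3) below, and at 25.9 with BAY-850, apart from VHL (34.2) above and EGLN1 (13.3) below. EGLN3 was the lowest of the 10 in SK-OV-3, at 1.36 with DMSO and 2.05 with BAY-850.

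Under DMSO the lines differed for 8 of the 10 genes, a share like that of all genes, of which 80.3% of 16070 were called in this contrast. It uses the same DMSO libraries as the BAY-850 comparisons, and the cell line and its medium cannot be told apart. PA-1 had lower levels of HIF1A (300 ± 14.2 against 820 ± 74.7 CPM, log2 difference -1.45, adjusted p = 6.23e-10), EPAS1 (31.1 ± 1.79 against 58.3 ± 2.44 CPM, -0.90, adjusted p = 7.68e-08) and VHL (-0.65, adjusted p = 5.32e-07). PA-1 had an 8.17-fold higher level of EGLN3 (log2 difference 3.03, SE 0.136, adjusted p = 3.87e-10) and also higher levels of ANKRD37 (0.98, adjusted p = 0.000138), HIF1AN (0.51, adjusted p = 1.15e-05), NDRG1 (0.38, adjusted p = 2.83e-05) and ARNT (0.24, adjusted p = 0.0171). The ARNT call was lost without PA-1 DMSO replicate 3, without SK-OV-3 DMSO replicate 1 and with scaling by library size only. EGLN1 (-0.053, SE 0.0586, adjusted p = 0.414) and EGLN2 (-0.077, SE 0.0666, adjusted p = 0.304) did not pass the test.

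Of 6 other subunits and partners of HIF, 5 were tested in each line, and 1 rose and 1 fell in each, where 7.13% of all genes were called in PA-1 and 20.4% in SK-OV-3. In PA-1 the coactivator gene CREBBP rose (log2 fold change 0.30, adjusted p = 0.0201) and ARNTL, a circadian relative of ARNT, fell (-0.40, adjusted p = 0.00333). In SK-OV-3, CITED2, whose product competes with HIF for the coactivators, rose (0.51, adjusted p = 0.000159) and ARNT2, an alternative beta subunit, fell (-0.62, adjusted p = 0.00174). Of 10 genes of the VHL ubiquitin ligase and HIF turnover, 1 rose and 1 fell in PA-1, and 2 rose in SK-OV-3, a share near the 20.4% of all genes called there. SIAH2, a ubiquitin ligase that acts on prolyl hydroxylases, rose in PA-1 (0.39, adjusted p = 0.00959) and in SK-OV-3 (0.38, adjusted p = 0.00123), its relative SIAH1 rose in SK-OV-3 (0.33, adjusted p = 0.0164), and the chaperone gene HSP90AA1 fell in PA-1 (-0.29, adjusted p = 0.00369). The ligase subunit genes CUL2, RBX1, TCEB1 and TCEB2 were not called in either line.

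The targets of HIF outside the set were read from a list of 74 genes from general knowledge, composed with the responses of several of them known, so its counts are not independent evidence of a direction. In PA-1, 61 of the 71 tested rose and none fell, where 4.65% of all genes were called as higher and 2.48% as lower. Their median log2 fold change was 0.58 against -0.0019 over all genes. In SK-OV-3, 45 of the 69 tested rose and 3 fell, where 10.8% of all genes were called as higher and 9.56% as lower. Their median there was 0.35 against -0.0091 over all genes. Of the 68 tested in both lines, 43 rose in both and 18 were called in PA-1 and not in SK-OV-3. LOXL2 and SPAG4 were the 2 called as higher in SK-OV-3 and not in PA-1. The share of all genes called in both lines was not counted. The difference between the lines was itself called for 31 of 72 targets with the lower log2 fold change in SK-OV-3. It was called for 10 with the higher one. Of all 16830 genes tested for this difference, 14.5% were called in either direction.

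By function, the genes of glucose uptake and glycolysis rose in 20 of 20 cases in PA-1 (median log2 fold change 0.46). In SK-OV-3 they rose in 15 of 20 (median 0.22). All counts by function stand beside 4.65% of all genes called as higher in PA-1 and 10.8% in SK-OV-3. For the difference between the lines the share was 14.5%, in either direction. The 3 genes of pH and lactate export, CA9, CA12 and SLC16A3, rose in both lines. Of the 5 genes of glycogen and lipid storage, 5 rose in PA-1 (median 2.10) and 2 in SK-OV-3 (median 0.35), and a lower response in SK-OV-3 was called for all 5. In PA-1 the largest changes by the naming rule were those of CXCR4, a chemokine receptor gene (log2 fold change 3.42, from 0.253 ± 0.0269 to 2.74 ± 0.151 CPM, so that it passed the rule's level only through the BAY-850 group), ANGPTL4, a lipase inhibitor gene (2.50), HILPDA, a lipid droplet gene (2.43), PPP1R3C, a glycogen-targeting phosphatase subunit gene (2.10), and PFKFB3, a glycolytic regulator gene (1.83). In SK-OV-3 they were those of SPAG4 (1.73, from 0.977 ± 0.237 to 3.20 ± 0.701 CPM, again above 1 CPM only with BAY-850), DDIT4, an inhibitor of mTOR signalling (1.61), STC2, which encodes a secreted glycoprotein (1.58), ALDOC, an aldolase gene (1.52), and CA9, a carbonic anhydrase gene (1.34). Those that fell in SK-OV-3 included EDN1 (-1.17), the gene of an endothelin, and HMOX1 (-0.45), the gene of a heme oxygenase. Genes of mitochondria and mitophagy rose in 4 of 5 cases in each line (medians 0.40 in PA-1 and 0.58 in SK-OV-3). For the mitophagy receptor genes BNIP3 and BNIP3L the response was larger in SK-OV-3, by 0.34 and 0.38 on the log2 scale (adjusted p = 0.00477 and 0.00238, edgeR). Both were named after their values were seen. Of the 72 targets tested, the difference was called for 10 in this direction and for 31 in the other.

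**Figure D4:**
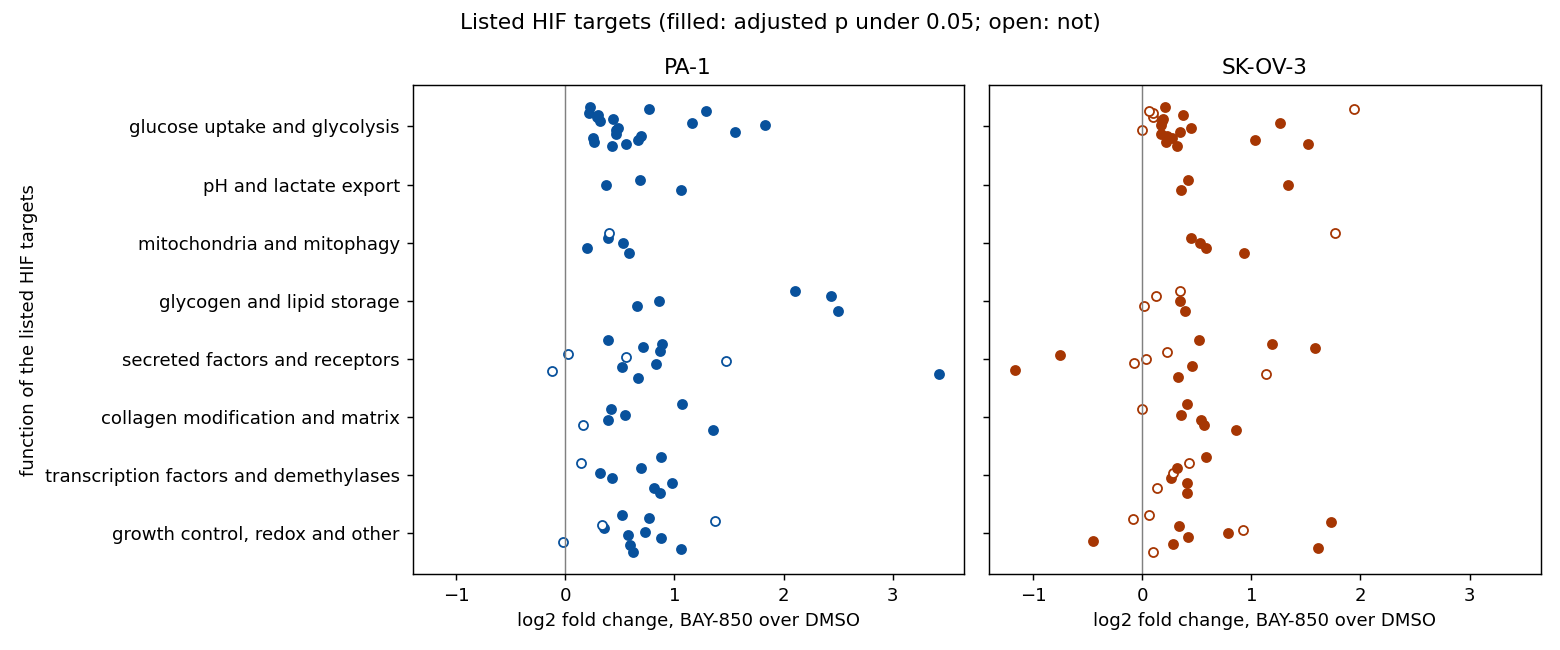
Log2 fold change of BAY-850 over DMSO (x axis) for the listed HIF targets, arranged by function (y axis), in PA-1 on the left and SK-OV-3 on the right, with filled points for an adjusted p under 0.05 and open points for the others. In PA-1 61 points are filled, all to the right of 0, and in SK-OV-3 45 are filled on the right and 3 on the left. Over all genes tested, 4.65% were called as higher in PA-1, and 10.8% as higher and 9.56% as lower in SK-OV-3.

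The genes most like 3 of the members were found by the root mean square difference between log2 CPM profiles, each centred on its own mean, over the 12 libraries and 12060 genes. These profiles include the BAY-850 libraries, so the levels of the genes found follow from the choice. They are given as a description without p-values. For ANKRD37 they were HILPDA (difference 0.545), HK2 (0.681), RAB20 (0.684), SLC2A1 (0.812) and RIMKLA (0.852), against a median of 1.66 over all genes. HILPDA rose in PA-1 from 35.8 ± 1.29 to 192 ± 4.64 CPM and had means of 8.03 ± 0.839 and 8.72 ± 1.51 CPM in SK-OV-3 (log2 fold change 0.13). SLC2A1, the gene of a glucose transporter, rose in PA-1 from 605 ± 21.3 to 1475 ± 33.5 CPM. In SK-OV-3 it had means of 325 ± 2.31 and 336 ± 12.7 CPM (0.06). For NDRG1 the closest were PRICKLE3 (0.171), STBD1 (0.173), PLOD2 (0.190), KCTD11 (0.201) and RAB3A (0.204), against a median of 0.596. PLOD2, a lysyl hydroxylase gene of collagen and a listed HIF target, rose by 1.07 in PA-1 and by 0.41 in SK-OV-3 on the log2 scale. For EGLN3 the closest were ARID3A (0.159), ACVR2B (0.209), DLG4 (0.219), CLIP3 (0.230) and PTCH1 (0.233), against a median of 1.56. As for EGLN3, the PA-1 levels of these 5 genes lay above their SK-OV-3 levels, for ARID3A at 50.8 ± 1.96 against 5.27 ± 0.820 CPM with DMSO. Their log2 fold changes after BAY-850 in PA-1 were 0.32, 0.13, 0.091, 0.076 and 0.26 in this order, below the 0.61 of EGLN3. In SK-OV-3 they were 0.56, 0.45, 0.74, 0.38 and 0.40, against 0.60 for EGLN3.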

How the data were processed

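RNA was measured in 12 libraries, 3 per group. The authors deposited RSEM expected counts per gene symbol for hg38, without normalization between libraries (RSEM 1.2.15 and Bowtie2 2.1.0, per the submitters' processing notes). Library totals of 34544505 to 51840233 counts limit the precision of low genes. The labels describe oligo-dT selection and strand-specific libraries, whereas the series' design text names depletion of ribosomal RNA. The strand setting of the counting is not given in the sources used here, so that a gene and an overlapping neighbour can share reads. RSEM divides such reads by estimate.

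Expected counts were first rounded to integers. Each comparison was fitted with edgeR 4.0.16 (R 4.3.3), with TMM factors, its filter on low counts, the quasi-likelihood test without a replicate block, and Benjamini-Hochberg adjustment over all genes tested. A call means an adjusted p under 0.05. CPM are TMM-normalized and computed here from the deposited counts. The SE of a log2 fold change was derived from the F statistic. The difference between the lines was tested in 1 fit of all 12 libraries. Likeness used log2 CPM with a prior count of 2. All 10 members passed the filter on low counts. Positions and transcript lengths come from GENCODE for GRCh38 and promoter windows from RefSeq. The fits were tested on simulated counts. Whether replicates were cultured separately is stated only as "biological replicates". The tests set each difference against the spread between these libraries, which edgeR estimates with the help of the other genes.

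The members and lists were chosen with earlier results of these data known. The rule for named genes takes all members, the called genes of the HIF partner, VHL ligase and NDRG lists, the 5 HIF targets per line and direction with the largest called change, at least 1 CPM on average and treatments that do not overlap, and the 5 genes closest in profile to ANKRD37, NDRG1 and EGLN3. Genes named beyond it were chosen after their values were seen. One gene that the rule names is not reported here.

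The alternatives were DESeq2 1.42.0, library size only, RLE factors, library size without ribosomal RNA genes, no filter, at least 10 counts in every library, the likelihood ratio test, limma-voom (limma 3.58.1), removal of the trend on GC content (loess span 0.5), the replicate block, all 12 libraries in 1 fit, and leaving out each library. Summing EGLN2 with RAB4B-EGLN2 was added after the data had been seen.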

Additional observations from a re-analysis of the deposited data

Results flagged for a closer look

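The response to BAY-850 differed between the lines for 3 of the 8 genes chosen by role, against 14.5% of all 16830 genes tested. The calls are those of the test of the difference itself, in the fit of all 12 libraries with edgeR. For EPAS1 the log2 fold change in SK-OV-3 exceeded that in PA-1 by 1.01 (adjusted p = 1.51e-06), with all BAY-850 libraries above all DMSO libraries in both lines. For EGLN1 the log2 difference, SK-OV-3 minus PA-1, was -0.83 (adjusted p = 2.80e-06), again with no overlap of the treatments in either line. Over all genes tested, the treatments did not overlap for 27.5% in PA-1 and 38.6% in SK-OV-3. For EGLN2 the difference was 0.45 (adjusted p = 0.0341), with overlapping treatments in PA-1. Its call was lost when any of 8 of the 12 libraries was left out. The difference was 0.29 when the counts of the read-through gene RAB4B-EGLN2 were added (adjusted p = 0.0203).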

How the results depend on the processing

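In PA-1 the count of called genes among the 8 was 2 under every alternative run, and that of HIF targets ranged from 53 to 59 when 1 library was left out. In SK-OV-3 the count of 3 became 5 with DESeq2 and 6 with the trend on GC content removed. The cause was not tested. With 1 library left out it ranged from 2 to 4 (HIF targets 41 to 50), the count of differences between the lines from 2 to 3, and the count between the lines under DMSO from 7 to 8. Signs turned for values near 0 that were not called. In PA-1 these were HIF1A with the GC trend removed (0.013), ARNT with library size only (-0.032), without ribosomal RNA genes (-0.012) and with 1 library left out (-0.045 to 0.063), and EGLN2 summed with RAB4B-EGLN2 (0.012). In SK-OV-3 it was HIF1AN with the GC trend removed (0.0089) and with 1 library left out (-0.052 to 0.011). For the difference between the lines they were VHL with limma-voom (-0.00045) and with 1 library left out (-0.037 to 0.039), and EGLN3 with library size only (0.028), without ribosomal RNA genes (0.0086), at least 10 counts (0.0044), limma-voom (0.0048) and 1 library left out (-0.15 to 0.17). Under DMSO it was EGLN1 with the GC trend removed (0.026). The cause was not tested. Same-numbered replicates did not deviate together (r from -0.0277 to 0.00417), so no pairing by number was seen. This cannot tell whether same-numbered cultures were set up together. The replicate block left the counts of called members at 2 in PA-1, 3 in SK-OV-3, 3 for the difference and 8 under DMSO, and the called HIF targets at 61 in PA-1, while those in SK-OV-3 went from 48 to 43. The lowest values rest on 119 to 297 counts per library for EGLN3 and 169 to 395 for ANKRD37 in SK-OV-3.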
